A study of Mus musculus with 18 samples.

Results

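The 7 adipokine genes Adipoq, Lep, Retn, Rbp4, Nampt, Apln and Nrg4 were followed across all 18 RNA-seq libraries of a study of IRF3, a transcription factor of the interferon response, in mouse adipocytes. They were taken as a named list, not by their values, and are 7 of the 33440 genes in the count tables. In the first experiment, cells of the stromal vascular fraction (SVF) of inguinal fat from C57BL/6 mice with the IRF3-2D allele, which encodes a constitutively active IRF3 and is silent until Cre acts on it, were differentiated into adipocytes with insulin, IBMX, dexamethasone and rosiglitazone, then given AAV with GFP (WT, 3 libraries) or AAV with Cre (FI3OE, 3 libraries). Both groups thus carried the allele. In the second, translating ribosome affinity purification (TRAP) was used to pull a tagged ribosomal protein, made in adipocytes only, out of epididymal white fat (eWAT) of C57BL/6 mice on a high-fat diet (HFD) for 8 weeks at thermoneutrality, with 6 libraries of mice lacking Irf3 in adipocytes (FI3KO) and 6 of WT. The regulatory region of Adipoq, itself one of the 7 genes, drives the Cre that turns on the tag and deletes Irf3. Fat pads for SVF cells came from mice aged 4 to 6 weeks. The general feeding protocol began at 8 weeks of age, and the age of the TRAP mice was not given separately. The labels call the libraries biological replicates without saying that each came from its own animal or culture, so p-values measure only the spread between these samples, which may be technical in part.

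Adipokines are proteins that fat releases into the blood or to nearby cells. Adiponectin (Adipoq) favors insulin action in liver and muscle, leptin (Lep) signals fat stores to the hypothalamus and rises with fat mass, resistin (Retn) opposes insulin action in mice, and retinol binding protein 4 (Rbp4) carries vitamin A. Nampt is the rate-limiting enzyme of NAD salvage and is also found outside cells, where it has been called visfatin, apelin (Apln) is a peptide ligand of the receptor Aplnr, and neuregulin 4 (Nrg4) is a growth factor of the EGF family that binds ERBB4.

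The 7 genes are protein coding, and their positions in GRCm38 are chr16:23146536-23158028 for Adipoq, chr6:29060220-29073877 for Lep, chr8:3655770-3660110 for Retn and chr12:32819545-32853349 for Nampt on the plus strand, and chr19:38116629-38125281 for Rbp4, chrX:48025146-48034853 for Apln and chr9:55220222-55326844 for Nrg4 on the minus strand. Lep, Retn and Rbp4, the genes that passed the test in both experiments, are shown with the 250 bases before their RefSeq start (GRCm38.p6, coding strand, 5′ to 3′). Capitals mark matches to a C/EBP site (TTGCNNAA) or a TATA box (TATAAA) on either strand. The windows are chr6:29059971-29060220 for Lep, chr8:3655520-3655769 for Retn and chr19:38124812-38125061 for the start of Rbp4 that holds matches, and no match was found at the other RefSeq start of Rbp4.
Lep: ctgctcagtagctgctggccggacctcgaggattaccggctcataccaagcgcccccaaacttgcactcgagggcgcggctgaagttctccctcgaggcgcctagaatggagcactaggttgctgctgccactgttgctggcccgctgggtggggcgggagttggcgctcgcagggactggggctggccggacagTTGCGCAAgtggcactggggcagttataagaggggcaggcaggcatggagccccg
Retn: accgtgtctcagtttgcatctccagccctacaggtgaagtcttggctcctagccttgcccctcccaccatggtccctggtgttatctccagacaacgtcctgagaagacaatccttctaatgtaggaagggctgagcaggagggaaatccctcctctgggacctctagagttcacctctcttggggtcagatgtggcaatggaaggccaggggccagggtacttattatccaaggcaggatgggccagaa
Rbp4: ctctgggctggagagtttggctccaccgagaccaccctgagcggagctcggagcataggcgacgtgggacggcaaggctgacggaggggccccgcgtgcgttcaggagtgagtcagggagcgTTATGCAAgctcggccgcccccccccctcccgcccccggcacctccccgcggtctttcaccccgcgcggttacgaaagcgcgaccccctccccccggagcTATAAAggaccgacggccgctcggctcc

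With the start of transcription counted as 0, the C/EBP match of Lep began at -55, and that of Rbp4 at -128 with a TATA box at -28. Over windows from 250 bases before to 50 after the start, a C/EBP match was present in 10.8% and a TATA box in 13.6% of the 32851 mouse promoters searched. The element that IRF proteins bind in interferon-stimulated genes, searched as 2 copies of GAAA with 2 bases between them on both strands, was in none of the 8 starts of the 7 genes and in 3.44% of all promoters. AGGTCA, an element of nuclear receptor sites, was found for Nampt at -151 and for Nrg4 at -90 and -26 (16.3% of promoters), Nrg4 also held a C/EBP match at 39, and the E-box CACGTG was in none of the 8 (7.15% of promoters). The motifs do not overlap in these windows, and a match is a string of letters and not a site of binding.

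Libraries held 21541334 to 36932452 reads in the SVF experiment and 25259869 to 40490283 in the TRAP experiment. Values per library are CPM (the reads of a gene scaled to the total of its library), levels of different genes are compared in TPM, which accounts for length, and fold changes come from the quasi-likelihood fit of edgeR, with p-values adjusted over all genes tested. A gene is called where its adjusted p is 0.05 or less, and both cutoffs of the study further require that it moved by 1 or more on the log2 scale. Reads of the transcript Irf3-202 numbered 164 to 388 in the WT TRAP libraries and 0 in all 6 FI3KO libraries, while the reads of the whole gene fell by 0.35 on the log2 scale (adjusted p = 0.0198). This direction turned with an offset for transcript length (0.71, adjusted p = 0.00181), and Irf3 TPM was 44.4 ± 3.43 in WT and 69.7 ± 14.5 in FI3KO (SD, n = 6 each). In SVF-derived adipocytes Irf3 was 1.66-fold higher in FI3OE, and 18 of 18 interferon-stimulated genes tested were called higher there (20.2% of all genes), against 3 of 16 called lower and 13 not called in FI3KO TRAP, a share near the 18.3% of all genes called lower there.

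Adipocyte markers were high in both experiments, and those of macrophages and progenitors were lower in TRAP than in culture. The summed CPM of 16 adipocyte markers was 42935 to 51509 in TRAP and 13467 to 14459 in SVF-derived libraries, while 12 progenitor and fibroblast markers summed to 658 to 2281 and 14203 to 14622 CPM, and 18 macrophage markers to 19.2 to 176 and 2782 to 2976 CPM. In bulk RNA, fewer cells of a type and less RNA per cell cannot be told apart. WT TRAP replicates 1 and 2 were closer to each other than any other pair of libraries of a group (chi-square per degree of freedom 2.49 over genes, against 3.68 to 243), yet differed by more than sampling noise. They were kept as 2 samples, and results are also given with their counts averaged and without them. In many genes the TRAP libraries numbered 1 and 2 stood apart from 3 to 6, so the TRAP values of the 7 genes are also given for each set.

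The WT levels of the 7 genes were ordered differently in the fat pad and in culture. In WT TRAP libraries Lep came first with 5600.5 ± 1652 TPM (SD, n = 6), then Adipoq with 3725 ± 1190, Rbp4 with 2301.5 ± 532 and Retn with 1634 ± 460 TPM. The ranges of neighbors in this order overlapped, while all libraries had Lep above the ranges of Rbp4 and Retn, and Adipoq above that of Retn. Lep and Adipoq traded places between the sets, with Adipoq at 5243 and 5245 TPM and Lep at 3927 and 3869 TPM in replicates 1 and 2, but Adipoq at 2745 to 3252 and Lep at 4853 to 7906 TPM in replicates 3 to 6. Nrg4 followed with 50.7 ± 24.8 and Nampt with 41.8 ± 5.01 TPM, again overlapping, and Apln was last with 0.512 ± 0.0756 TPM. By mean TPM, Lep ranked 13th and Adipoq 19th among all genes.

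In WT SVF-derived adipocytes no neighbors overlapped, and Rbp4 came first with 1365 ± 62.8 TPM (SD, n = 3). Adipoq had 1153 ± 12.4, Retn 818 ± 27.6, Nampt 175 ± 11.7 and Apln 28.7 ± 2.69 TPM. Lep was sixth with 10.0 ± 1.06 TPM, at 349 to 417 reads a library, and Nrg4 last with 5.66 ± 0.531 TPM. Low leptin mRNA beside high adiponectin mRNA thus marked the cultured cells, where TPM of Lep was 0.00754 to 0.00942 of that of Adipoq, while in WT TRAP libraries it was 0.738 to 2.44 of it. This ratio was chosen after the values had been seen.

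None of the 7 genes overlapped in TPM between the 2 WT groups, nor did 73.4% of the 16636 genes tested in either experiment. Mean TPM in TRAP was 559.8 times that in culture for Lep, 8.95 times for Nrg4, 3.23 times for Adipoq, 2.00 times for Retn and 1.69 times for Rbp4. The reverse held for Nampt, 4.19 times higher in culture, and for Apln, 56.0 times higher. Depot, diet, culture and RNA isolation all differ between these groups and cannot be told apart, so no test was made. The plot of WT levels shows these gaps on a log axis.

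**Figure D1:**
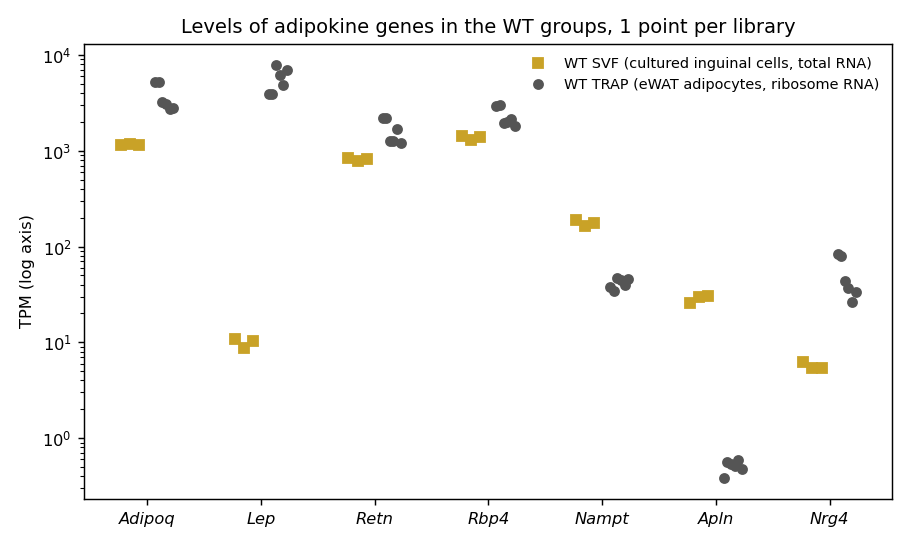
TPM (log axis) of each adipokine gene in WT SVF-derived adipocytes (squares, 3 libraries) and WT TRAP of eWAT (circles, 6 libraries), 1 point per library. Lep lies at 10.0 TPM on average in culture and at 5600.5 TPM in TRAP, while Nampt and Apln are the genes that lie higher in culture.

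Most reads of a gene came from 1 protein-coding transcript in every group for Adipoq (93.9% to 96.4%), Lep (98.5% to 99.9%), Retn (97.7% to 99.0%), Rbp4 (90.0% to 92.6%), Nampt (96.0% to 96.4%) and Apln, which has 1 transcript. Nrg4 differed. Its reads were assigned mainly to Nrg4-209, annotated as a processed transcript without a reading frame (45.9% to 60.8% by group), and to Nrg4-207, a target of nonsense-mediated decay (21.0% to 27.0%), with 5.22% to 24.8% on the protein-coding Nrg4-213. The 3′ end of Nrg4 also overlaps Fbxo22 on the other strand, and the libraries do not mark strand, so part of these reads cannot be told from Fbxo22. Nrg4 values are therefore uncertain as a measure of the mRNA for the protein.

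Constitutively active IRF3 in cultured adipocytes was set against GFP alone to see what IRF3 activity does to the cells. Adiponectin and resistin mRNA rose and those of Rbp4, Nampt and leptin fell, all by less than 1 on the log2 scale. All 5 calls were lost in a fit of all 18 libraries with 1 shared estimate of the spread (adjusted p = 0.402 for Adipoq, 0.107 for Retn, 0.126 for Rbp4, 0.125 for Nampt and 0.681 for Lep). Of the 7 genes, 2 were called higher and 3 lower, while 37% of the 16105 genes tested were called, and by both cutoffs none of the 7 passed, against 3.62% of genes. The median log2 fold change of the 7 was -0.10, and that of all genes -0.0047.

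Retn measured 314, 297 and 305 CPM in WT and 435, 459 and 459 CPM in FI3OE. Every FI3OE library was above the WT range, and 49.8% of the genes tested likewise had no overlap of CPM between these groups. Retn rose by 0.58 on the log2 scale (standard error 0.039, adjusted p = 4.72e-07). Adipoq rose with 751, 791 and 769.7 CPM in WT and 997, 1018 and 1032 CPM in FI3OE, again with no overlap. Its log2 fold change was 0.42 (standard error 0.035, adjusted p = 3.67e-06).

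Rbp4 went the other way. Its values were 394, 378 and 407 CPM in WT and 259, 307 and 286 CPM in FI3OE, so every FI3OE library was lower, and it changed by -0.45 on the log2 scale (standard error 0.060, adjusted p = 0.000115). Nampt fell from 384, 351 and 355 CPM to 274, 329 and 299 CPM, or by -0.25 on the log2 scale (standard error 0.062, adjusted p = 0.00743). For these genes too the groups did not overlap, and in FI3OE the TPM order of the leading genes became Adipoq (1479.8 ± 15.5), Retn (1188 ± 51.6) and Rbp4 (988 ± 94.6).

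Lep, already scarce in these cells, measured 15.3, 16.2 and 16.4 CPM in WT and 14.7, 12.3 and 13.3 CPM in FI3OE. The groups did not overlap, but the gap between the nearest libraries was small. Lep fell by 0.24 on the log2 scale (standard error 0.078, adjusted p = 0.0341), and the call was lost without FI3OE replicate 2 (adjusted p = 0.102) or 3 (0.0973), without WT replicate 2 (0.0924) or 3 (0.11), and with the DESeq2 Wald test (0.061). Apln and Nrg4 were not called. Apln measured 35.3, 41.2 and 42.3 CPM in WT and 30.9, 59.5 and 40.9 CPM in FI3OE, and changed by 0.17 on the log2 scale (standard error 0.18, adjusted p = 0.509), or by -0.12 without FI3OE replicate 2. Nrg4 measured 6.15, 5.52 and 5.43 CPM in WT and 4.95, 5.46 and 5.33 CPM in FI3OE (log2 fold change -0.10, standard error 0.11, adjusted p = 0.525), and both genes overlapped between the groups.

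**Figure D2:**
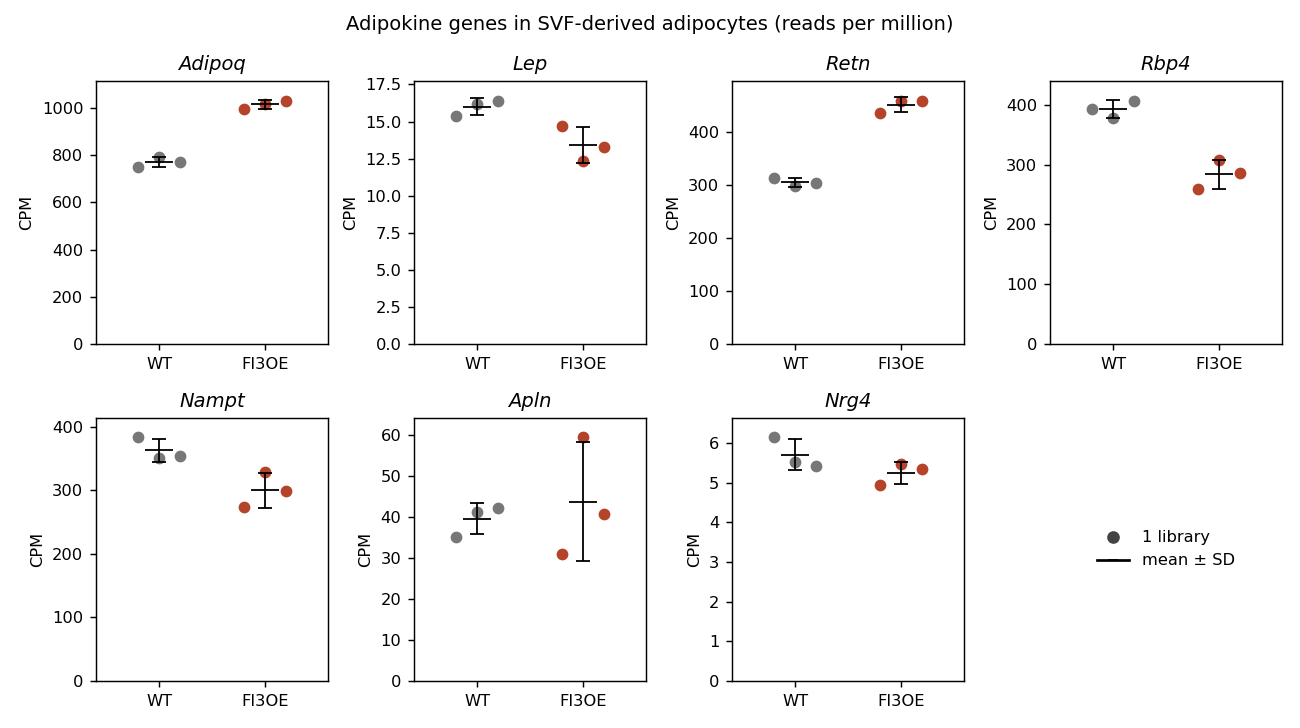
CPM of each adipokine gene in SVF-derived adipocytes, WT and FI3OE, with 1 point per library (3 per group) and the mean ± SD. Adipoq and Retn lie higher in every FI3OE library, Rbp4, Nampt and Lep lower, and Apln and Nrg4 overlap.

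Other measures moved with these groups. Adipocyte markers summed to 14032 to 14459 CPM in WT and 13467 to 13681 CPM in FI3OE, with no overlap (as for 49.8% of single genes) and 5 of 16 called higher and 9 lower (20.2% and 16.8% of all genes), and only Cidea at 3 reads or fewer in all FI3OE libraries. Cidea passed the filter on low counts only through WT, so its call, among the 9 lower, is not read as a result. Macrophage markers summed to 2782 to 2976 and 2879 to 2922 CPM, with 6 of 17 tested called higher and 3 lower. Progenitor markers summed to 14203 to 14595 CPM in WT and 14517 to 14622 CPM in FI3OE, with 5 of 12 called higher and 2 lower. Mitochondrial transcripts took 2.12% to 2.31% of reads in WT and 1.01% to 1.16% in FI3OE. The part of these differences in the adipokine changes was not tested.

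Adipocytes lacking Irf3 were set against WT in obese fat to see what loss of the factor does in the animal. Leptin mRNA was 3.10-fold lower and resistin mRNA 1.94-fold higher in FI3KO, each with no overlap between 6 libraries and 6, and Rbp4 was 1.31-fold higher. Of the 7 genes, 2 were called higher and 1 lower, while 37.4% of the 13624 genes tested were called. By both cutoffs Lep alone passed, against 6.61% of genes. The median log2 fold change of the 7 was 0.42, with 0.016 over all genes. CPM did not overlap for 2 of the 7 and for 15.2% of genes tested.

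Lep in WT measured 6699.8 and 6617 CPM in replicates 1 and 2 and 13298, 10418, 8792 and 11659 CPM in replicates 3 to 6. In FI3KO it measured 3157 and 3912 CPM in replicates 1 and 2 and 3074, 2849.6, 2456 and 2401 CPM in replicates 3 to 6. The highest FI3KO library thus lay well under the lowest WT library. The log2 fold change was -1.63 (standard error 0.18, adjusted p = 1e-04 by edgeR's quasi-likelihood test), and it stayed called without any single library, between -1.74 and -1.53. Lep took 0.662% to 1.33% of all reads in WT and 0.240% to 0.391% in FI3KO, and its rank by reads moved from between 3 and 6 to between 14 and 33.

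Leptin mRNA fell in both sets, by 0.85 on the log2 scale in replicates 1 and 2 (standard error 0.090, adjusted p = 0.0165) and by 1.99 in replicates 3 to 6 (standard error 0.12, adjusted p = 1.21e-06). It was the 1 gene of the 7 called in replicates 1 and 2, where 3.56% of 14040 genes were called, and 1 of 5 called in replicates 3 to 6, where 50.6% of 13692 were. The effects differed by -1.13 on the log2 scale (standard error 0.20, adjusted p = 0.00173 for the interaction). In WT alone Lep was 1.60-fold higher in replicates 3 to 6 than in 1 and 2 (adjusted p = 0.00656), and in FI3KO it was 1.37-fold lower (adjusted p = 0.0495).

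Retn measured 745 and 744 CPM in replicates 1 and 2 of WT and 436, 421, 592 and 419.6 CPM in replicates 3 to 6. In FI3KO the values were 1077 and 855 CPM, then 1181, 1275, 954 and 998 CPM. All FI3KO libraries lay above all WT libraries. Retn rose by 0.96 on the log2 scale (standard error 0.17, adjusted p = 0.00132), and it was called without any single library, from 0.87 to 1.05. In replicates 1 and 2 it was 0.44 (standard error 0.13, adjusted p = 0.106) and in replicates 3 to 6 it was 1.28 (standard error 0.13, adjusted p = 3.34e-05), a difference of 0.85 (adjusted p = 0.0171).

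Rbp4 in WT measured 841 and 843 CPM in replicates 1 and 2 but 579, 564, 629.9 and 554 CPM in replicates 3 to 6, and in FI3KO 996 and 884 CPM, then 871, 884, 745 and 714 CPM. Within each set FI3KO was higher, but FI3KO replicates 5 and 6 overlapped WT replicates 1 and 2. Over all libraries Rbp4 rose by 0.39 on the log2 scale (standard error 0.14, adjusted p = 0.0402). This call was lost without any 1 of FI3KO replicates 1 to 4 (adjusted p 0.0892, 0.0683, 0.0638 and 0.0689) or WT replicates 3 to 6 (0.0894, 0.0888, 0.0733 and 0.095). The sets gave 0.22 (adjusted p = 0.172) and 0.51 (adjusted p = 0.000458), with no difference called between them (0.29, adjusted p = 0.136).

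**Figure D3:**
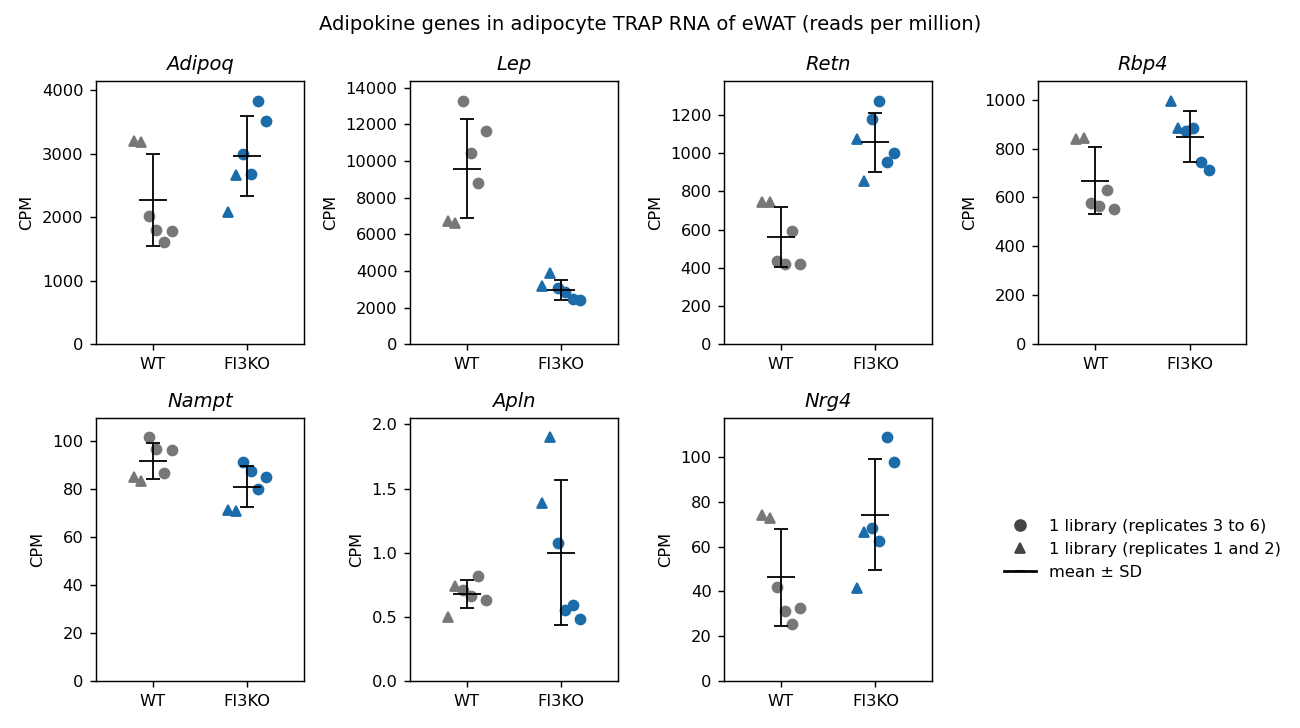
CPM of each adipokine gene in TRAP libraries of eWAT adipocytes, WT and FI3KO (6 libraries each), with replicates 1 and 2 as triangles, replicates 3 to 6 as circles and the mean ± SD. Lep and Retn do not overlap between the genotypes, and in WT the triangles of Adipoq, Nrg4, Retn and Rbp4 lie above the circles while those of Lep lie below.

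For adiponectin and neuregulin 4 mRNA the effect of genotype differed between the 2 sets, with a rise called in replicates 3 to 6 only. Adipoq measured 3198 and 3176 CPM in replicates 1 and 2 of WT, and 2084 and 2663 CPM in those of FI3KO. In replicates 3 to 6 the values were 2025, 1802, 1614 and 1786 CPM in WT and 2986, 2682, 3835 and 3514 CPM in FI3KO. FI3KO was thus lower than WT in the first set and higher in the second, with no overlap within either set. CPM did not overlap for 64.8% of genes in replicates 1 and 2 and for 46.1% in replicates 3 to 6.

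The log2 fold change of Adipoq was -0.37 (standard error 0.10, adjusted p = 0.0968) in replicates 1 and 2 and 0.90 (standard error 0.12, adjusted p = 0.00016) in replicates 3 to 6. The difference of 1.27 was called (standard error 0.20, adjusted p = 0.000841), as were 26.5% of such differences over all genes. Over all 12 libraries the change was 0.42 and not called (adjusted p = 0.115). It was called without WT replicate 1 (adjusted p = 0.0399), without WT replicate 2 (0.0414), and with both left out (log2 fold change 0.77, adjusted p = 0.00132).

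Nrg4 followed the same course. It measured 74.3 and 72.7 CPM in replicates 1 and 2 of WT and 41.7 and 66.5 CPM in those of FI3KO, but 42.0, 31.3, 25.3 and 32.5 CPM in replicates 3 to 6 of WT and 68.6, 62.6, 109 and 97.8 CPM in those of FI3KO. The log2 fold change was -0.38 (standard error 0.19, adjusted p = 0.241) in the first set and 1.42 (standard error 0.20, adjusted p = 0.000231) in the second, a difference of 1.80 (adjusted p = 0.00276). Over all libraries it was 0.72 (standard error 0.30, adjusted p = 0.0729). The call was gained without FI3KO replicate 1 (adjusted p = 0.045), WT replicate 1 (0.027) or WT replicate 2 (0.0294), or without both of the latter (log2 fold change 1.24, adjusted p = 0.00145). It was also gained with WT replicates 1 and 2 averaged (0.90, adjusted p = 0.028), with the replicate set as a term (0.82, adjusted p = 0.0461) and in the fit of all 18 libraries (0.71, adjusted p = 0.0423).

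The WT libraries alone differed between the sets for 5 of the 7 genes, while 19.9% of genes did so. Against replicates 1 and 2, WT replicates 3 to 6 were lower for Nrg4 (2.32-fold, adjusted p = 0.00363), Adipoq (1.83-fold, adjusted p = 0.000999), Retn (1.65-fold, adjusted p = 0.00689) and Rbp4 (log2 fold change -0.58, adjusted p = 0.00124), and higher for Lep. Within FI3KO, 2 of the 7 differed, Lep and Apln, while 14% of genes did so. Because WT replicates 1 and 2 were so close to each other, p-values that rest on them as 2 samples may be too small.

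Other markers moved with the sets. Macrophage markers summed to 54.9 and 54.1 CPM in WT replicates 1 and 2 and 99.1 to 176 CPM in WT replicates 3 to 6, against 45.8 and 57.6 CPM, then 19.2 to 23.3 CPM, in FI3KO, and none of the 18 was at 3 reads or fewer in a whole group. Of these markers, 17 of 18 were called lower in FI3KO in replicates 3 to 6, where 50.6% of all genes were called, and 1 of 17 in replicates 1 and 2, where 3.56% were. Cd68, among those called lower in replicates 3 to 6, passed the filter on low counts there through the WT libraries and was not tested over all libraries. Its call is not read as a result. Spp1, C1qc and C1qa were also rare in FI3KO, at means of 0.296, 0.413 and 0.461 CPM. Progenitor markers summed to 1066 and 1076 CPM in WT replicates 1 and 2, 1644 to 2281 CPM in WT replicates 3 to 6, and 658 to 1136 CPM in FI3KO. Of these 12, 2 were called higher and 4 lower over all libraries (19.1% and 18.3% of all genes). In replicates 3 to 6, 2 were called higher and 8 lower (50.6% of all genes called). In replicates 1 and 2 they were 1 and 0 (3.56%). Col1a1 averaged 1005 CPM in WT and 271 CPM in FI3KO. Dcn (27.3 and 68.5 CPM) and Dpt (75.9 and 113 CPM) were called higher. The part of macrophage and progenitor markers in the adipokine changes was not tested. Adipocyte markers summed to 50924 and 51509 CPM in WT and 42935 and 44275 CPM in FI3KO in replicates 1 and 2, with FI3KO lower, and to 43205 to 47353 CPM in WT and 46744 to 48987 CPM in FI3KO in replicates 3 to 6, where the ranges overlapped and FI3KO was mostly higher. Their part was not tested either.

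Nampt was not called in TRAP over all libraries or in either set, and was called with the replicate set as a term (log2 fold change -0.14, adjusted p = 0.0362). It measured 85.1 and 83.4 CPM, then 102, 96.6, 86.8 and 96.2 CPM, in WT, and 71.1 and 70.6 CPM, then 91.2, 87.6, 79.9 and 84.8 CPM, in FI3KO. Of the FI3KO libraries 3 lay under all of WT and the rest overlapped. It changed by -0.13 on the log2 scale (standard error 0.064, adjusted p = 0.118), or by 0.021 with the length offset, with -0.19 and -0.11 in the 2 sets and no difference called between them (adjusted p = 0.527).

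Apln was close to the limit of these libraries, at 15 to 28 reads in WT and 15 to 59 in FI3KO. It measured 0.498 and 0.738 CPM, then 0.706, 0.662, 0.816 and 0.630 CPM, in WT, and 1.39 and 1.90 CPM, then 1.07, 0.557, 0.593 and 0.480 CPM, in FI3KO. Replicates 1 and 2 of FI3KO were the highest. The log2 fold change was 0.61 (standard error 0.34, adjusted p = 0.18) over all libraries and 0.30 without FI3KO replicate 2, 1.45 in replicates 1 and 2 (adjusted p = 0.0748) and -0.03 in replicates 3 to 6 (adjusted p = 0.946), a difference of -1.48 (adjusted p = 0.0368). Endothelial cells make apelin, and in FI3KO replicates 1 and 2 the 12 endothelial markers summed to 90.3 and 134 CPM, against 31.6 to 59.2 CPM in the other TRAP libraries. Of them, 5 of 12 were called higher in replicates 1 and 2, where 3.56% of all genes were called, and their part in the values of Apln was not tested.

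**Figure D4:**
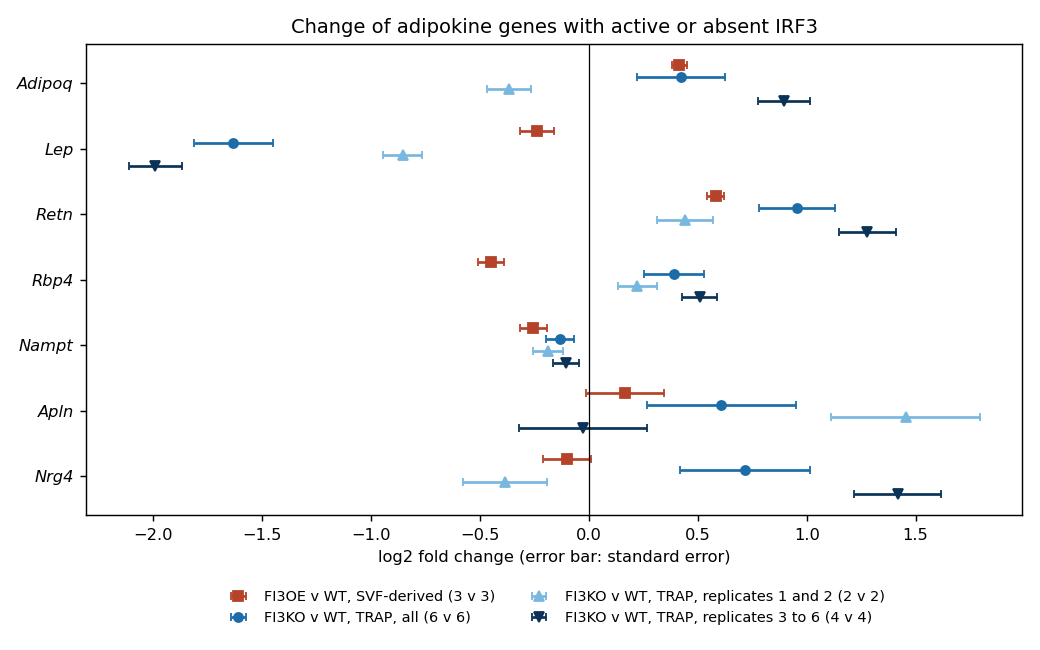
Log2 fold change of each adipokine gene with its standard error, for FI3OE against WT in SVF-derived adipocytes and for FI3KO against WT in TRAP libraries, over all replicates, replicates 1 and 2, and replicates 3 to 6. Lep lies below 0 and Retn above 0 in all 4 estimates, while Adipoq and Nrg4 lie on opposite sides of 0 in the 2 TRAP sets.

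Set side by side, active IRF3 in culture and absent IRF3 in eWAT gave changes of the same sign for 2 genes called in both, Lep (log2 fold change -0.24 and -1.63) and Retn (0.58 and 0.96). Rbp4 was called in both with opposite signs (-0.45 and 0.39). The calls of Lep in culture and of Rbp4 in TRAP were lost without some single libraries. All calls in culture were lost in the fit of all 18 libraries. The 2 experiments share no library, and they differ in depot, diet and RNA isolation, so the sizes were not compared by a test. The ratio of Lep to Adipoq in TPM was 0.225 to 0.511 in FI3KO TRAP and 0.738 to 2.44 in WT, and 0.00426 to 0.00637 in FI3OE cells and 0.00754 to 0.00942 in WT, with no overlap in either experiment.

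Within genotype and replicate set, some pairs of adipokines moved together across single TRAP libraries, some moved in opposite directions, and others did not track each other. Deviations of log2 CPM from the mean of genotype and set correlated at r = 0.98 for Adipoq with Nrg4 and r = 0.915 for Retn with Rbp4, and at -0.88 for Adipoq with Rbp4 and -0.833 for Adipoq with Retn (Pearson, 12 libraries). Lep correlated at 0.081 with Adipoq and 0.689 with Nampt. In FI3KO, replicates 5 and 6 were high for Adipoq and Nrg4 and low for Retn and Rbp4 next to replicates 3 and 4, and their progenitor markers summed to 658 and 677 CPM against 1062 (replicate 3) and 1005 CPM (replicate 4). The points of each pair of genes come from the same libraries, which differ in depth and in the marker sums given above, and the values are a description.

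**Figure D5:**
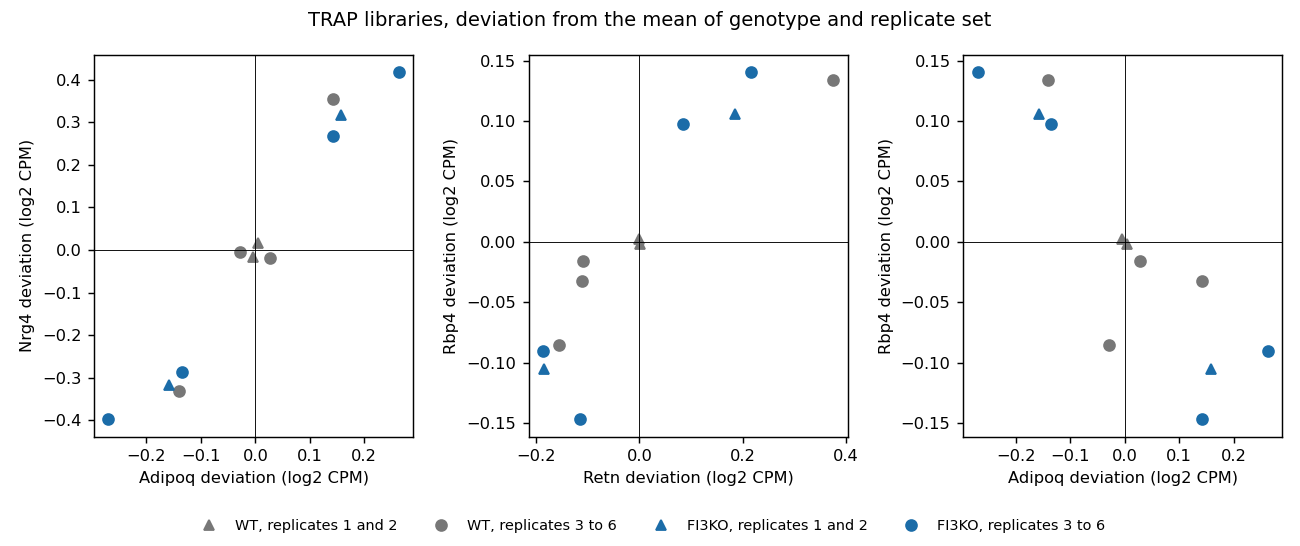
Deviation of log2 CPM from the mean of genotype and replicate set in the 12 TRAP libraries, for Nrg4 against Adipoq, Rbp4 against Retn and Rbp4 against Adipoq, with WT in grey and FI3KO in blue. Adipoq and Nrg4 rise together (r = 0.98), as do Retn and Rbp4 (r = 0.915), while Rbp4 falls as Adipoq rises (r = -0.88).

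Over the 8592 genes searched, all at a mean log2 CPM of 3 or more, those most like Adipoq by this measure were Chrdl1 (r = 0.987), Tns2 (0.983) and Fah (0.983), and those most like Nrg4 were Fah (0.992), Sod3 (0.989) and Ctsb (0.989). Among the genes most like Lep were Dtx4 (0.962) and Hvcn1 (0.962). Retn was most like Jund (0.968), Cox14 (0.967) and Atg101 (0.965), and Rbp4 like Fem1b (0.972), Tmem183a (0.971) and Azi2 (0.967). For Nampt they were Chml (0.913), Ankrd52 (0.911) and Hectd3 (0.907), and for Apln Alkal2 (0.927), Ski (0.916) and Wdr12 (0.916). All rest on the same 12 libraries.

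The receptors of these adipokines were also measured. Of 8 receptor genes tested in TRAP, 4 were called higher and 1 lower in FI3KO, while 19.1% and 18.3% of all genes were. In replicates 1 and 2, 0 of 8 were called higher and 1 lower by edgeR (3.56% of all genes called), the latter being Tlr4 (-0.40, adjusted p = 0.0484), and in replicates 3 to 6, 4 of 9 were called higher and 2 lower (50.6% of all genes called). Adipor2, an adiponectin receptor, measured 778 to 1248 CPM in WT and 1068 to 1545 CPM in FI3KO (log2 fold change 0.45, adjusted p = 0.0461), and Adipor1 101 to 139 CPM and 129.9 to 162 CPM (0.32, adjusted p = 0.0143). Both ranges overlapped. Their rise was in replicates 3 to 6 (0.76, adjusted p = 0.000991, and 0.49, adjusted p = 0.000336) and not in replicates 1 and 2 (-0.06 and 0.01), and the difference between sets was called for both (adjusted p = 0.0129 and 0.00849).

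The neuregulin receptors were rare. Erbb4 had 0 to 2 reads in WT replicates 3 to 6 and 20 to 24 in those of FI3KO, but 13 and 14 reads in WT replicates 1 and 2 and 8 and 9 in those of FI3KO (adjusted p = 0.0472 over all libraries, 0.0011 for the difference between sets). In replicates 3 to 6 Erbb4 passed the filter on low counts only through FI3KO. Its call there, among the higher ones, is therefore not read as a result. Erbb3 had 14 to 25 reads in WT and 20 to 55 in FI3KO (log2 fold change 0.93, adjusted p = 0.00354), with 0.74 in replicates 1 and 2 (adjusted p = 0.223) and 1.03 in replicates 3 to 6 (adjusted p = 0.00637). Cap1, a resistin receptor, was lower in FI3KO (-0.40, adjusted p = 0.0077), with -0.40 and -0.39 in the 2 sets. Stra6l, a receptor of Rbp4, had 18 to 21 reads in WT replicates 3 to 6, 0 to 2 in those of FI3KO, and 2 to 12 in replicates 1 and 2. It passed the filter on low counts in replicates 3 to 6 only, through the WT libraries, and not in replicates 1 and 2 or over all libraries. Its call in replicates 3 to 6, among the 2 lower ones, is therefore not read as a result. Cdh13 (0.60, adjusted p = 0.211), Aplnr (0.46, adjusted p = 0.321) and Tlr4 (-0.15, adjusted p = 0.163) were not called, and the leptin receptor Lepr had at most 22 reads and was not tested.

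In SVF-derived adipocytes 6 receptors were tested, with 3 called higher and 0 lower by edgeR, against 20.2% and 16.8% of all genes. Cap1 (log2 fold change 0.22, adjusted p = 0.00156), Tlr4 (0.16, adjusted p = 0.0182) and Adipor2 (0.10, adjusted p = 0.0309) were called higher in FI3OE. Adipor1 (-0.03, adjusted p = 0.588), Cdh13 (-0.36, adjusted p = 0.273) and Erbb3 (-0.23, adjusted p = 0.523) were not called.

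Adiponectin is folded and assembled in the endoplasmic reticulum before release. Of 13 genes of this machinery, 10 were called lower and 1 higher in FI3OE, where 16.8% and 20.2% of all genes were, and 5 were lower by both cutoffs, with a median log2 fold change of -0.71. The chaperone Hspa5 (-1.65, adjusted p = 6.94e-07), the oxidase Ero1l (-1.51, adjusted p = 1.54e-06), the chaperone Hsp90b1 (-1.39, adjusted p = 1.36e-08) and the disulfide isomerase Pdia4 (-1.26, adjusted p = 1.44e-08) led the fall, while Adipoq mRNA rose. In FI3KO TRAP 7 of 13 were called lower and 2 higher, with a median of -0.19, while 18.3% and 19.1% of all genes were. In replicates 1 and 2 by edgeR 0 of 13 were called (3.56% of all genes), and in replicates 3 to 6 there were 7 lower and 2 higher (50.6% of all genes called). Plod1 (-0.63, adjusted p = 0.000228), Erp44 (-0.40, adjusted p = 0.0043) and Hspa5 (-0.38, adjusted p = 0.00202) were lower and Pdia4 (0.52, adjusted p = 0.00397) higher.

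Enzymes that make or use NAD beside Nampt split between directions. In FI3OE 4 of 17 were called higher and 6 lower, against 20.2% and 16.8% of all genes, among them Qprt (-0.95, adjusted p = 0.0466), Sirt3 (-0.63, adjusted p = 0.000308), Nmnat2 (0.47, adjusted p = 0.0281) and Nnmt (0.40, adjusted p = 1.19e-05). Qprt had at most 18 reads a library in WT and 13 in FI3OE. It passed the filter on low counts through the WT libraries, so its call is not read as a result. In FI3KO TRAP 2 of 15 were called higher and 3 lower by edgeR, a share near the 37.4% of all genes called. Nmnat3 (1.05, adjusted p = 0.000483) and Sirt1 (0.29, adjusted p = 0.0141) were higher, and Nmnat2 (-0.78, adjusted p = 0.00933) and Nnmt (-0.54, adjusted p = 0.00224) lower. In replicates 1 and 2, 0 of 15 were called (3.56% of all genes), and in replicates 3 to 6 there were 3 higher and 4 lower (50.6% of all genes called).

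Of 25 other factors that adipocytes release, 22 were tested in culture, with 11 called higher and 7 lower in FI3OE, against 20.2% and 16.8% of all genes. The chemokine Ccl2 (1.51, adjusted p = 2.09e-08), Gdf15 (1.10, adjusted p = 4.92e-06) and Bmp8b (1.10, adjusted p = 0.00301) were higher and Fgf21 (-1.15, adjusted p = 0.046) lower. Fgf21 had at most 13 reads a library in WT and 11 in FI3OE. It passed the filter on low counts only through WT, so its call is not read as a result. In TRAP 19 were tested, with 2 called higher and 9 lower in FI3KO, against 19.1% and 18.3% of all genes. Ccl2 (-4.14, adjusted p = 0.000238), Lcn2 (-2.76, adjusted p = 0.0014), the acute phase protein Saa3 (-2.75, adjusted p = 0.000784) and Fstl1 (-2.23, adjusted p = 0.00942) had the 4 largest called changes. In replicates 1 and 2, 0 of 20 were called higher and 2 lower by edgeR, against 5 and 11 of 19 in replicates 3 to 6, with 3.56% and 50.6% of all genes called in these sets. Several of these genes are also made by macrophages and fibroblasts, whose markers moved with the same libraries, and the part of those cells was not tested.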

How the data were processed

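RNA was measured by RNA-seq in 6 libraries of SVF-derived adipocytes and 12 TRAP libraries of eWAT, ribosomal RNA-depleted and made with a kit that does not mark strand. The authors trimmed reads with fastp, quantified 118733 transcripts with Salmon 1.4.0 and deposited per transcript the estimated counts, not normalized, the TPM and the lengths. Here 117850 transcripts were matched to genes in GENCODE M21 (GRCm38, the build of the authors' annotation), and the 883 without a match (0.375% to 1.08% of reads) each stood as 1 gene. The deposited estimated counts were summed per gene and rounded. CPM were computed from them, TPM were summed as deposited, and the deposited effective lengths served only in the length offset. Depth limits the precision of rare genes such as Apln in TRAP.

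The SVF and TRAP libraries were fitted separately with edgeR 4.0.16 in R 4.3.3 (filterByExpr, TMM, quasi-likelihood test, Benjamini-Hochberg adjustment, no covariates). The interaction of genotype and replicate set was fitted over the 12 TRAP libraries. All 7 genes passed the filter in every fit. On simulated data with 200 genes changed by 1.5 on the log2 scale, 92% were recovered with 11 false calls among 15874 genes in the SVF design and 87% with 12 among 13456 in the TRAP design. The simulated libraries held no replicate sets. Over all libraries only Lep in TRAP, of the 7 genes, changed by more than 1.5, and recovery of smaller changes was not measured. For correlations, log2 CPM had 2 as the prior count. From other lists the genes named are up to 4 with the largest called change, and every receptor tested, and 1 gene that the rule for likeness names is not reported here. The adipokines and all lists were chosen with earlier results of these data known. Alternatives were DESeq2 1.42.0 (size factors or Wald test), no filter, at least 10 counts in every library, a length offset, robust dispersion, all 18 libraries, no unmatched transcripts, a replicate block, each library left out, the TRAP replicate sets, a set term, and WT TRAP replicates 1 and 2 averaged. Leaving both out was chosen after seeing the data. Promoters were read from RefSeq (7 of 7 genes matched, chromosome 18 left out of the background), and 5 motifs were searched.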

Additional observations from a re-analysis of the deposited data

Results flagged for a closer look

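For 5 of the 7 adipokine genes the effect of genotype in TRAP libraries differed between replicates 3 to 6 and replicates 1 and 2 by a test of the difference itself (edgeR's quasi-likelihood test of the interaction, adjusted over all genes, of which 26.5% differed in this way). The difference in log2 fold change was 1.27 for Adipoq (adjusted p = 0.000841), -1.13 for Lep (adjusted p = 0.00173), 0.85 for Retn (adjusted p = 0.0171), -1.48 for Apln (adjusted p = 0.0368) and 1.80 for Nrg4 (adjusted p = 0.00276). No label names what the numbers 1 and 2 against 3 to 6 stand for, and the split followed earlier results of these data. The gap between the outermost library and the next was tested in 14 groups of 6. No single library stood far from its group for any of the 7 genes, where chance gives about 0.7. Such a test cannot detect 2 libraries that stand apart together, as WT replicates 1 and 2 did for Adipoq.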

How the results depend on the processing

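The falls of Lep and the rises of Retn in FI3KO TRAP kept their direction under all 26 alternatives, with a call in each for Lep and in 25 for Retn. In FI3OE cells, 0 of the 7 genes were called in the fit of all 18 libraries, against 5, with 1572 genes called and 342 by both cutoffs. There Adipoq had a log2 fold change of 0.42, Lep -0.23, Retn 0.58, Rbp4 -0.45 and Nampt -0.25. Lep was also not called with the DESeq2 Wald test (-0.24), no filter (-0.22), the length offset (-0.29, with 3800 genes called) or the replicate block (-0.24, adjusted p = 0.0594), and without single libraries it ranged from -0.29 to -0.19. Apln ranged from -0.12 to 0.36 and Nrg4 from -0.14 to -0.047 without single libraries, and Nrg4 was -0.0067 with the length offset.

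In TRAP, 1 of the 7 was called in replicates 1 and 2 (500 genes called, 191 by both cutoffs) and 5 in replicates 3 to 6 (1868 by both cutoffs). Replicates 1 and 2 gave -0.37 for Adipoq, -0.38 for Nrg4, 0.44 for Retn and 0.22 for Rbp4, and replicates 3 to 6 gave 0.90 for Adipoq, 1.42 for Nrg4 and -0.028 for Apln. With WT replicates 1 and 2 averaged, 5 were called, with Adipoq at 0.55 and Nrg4 at 0.90, and with both left out 5 were called (1432 genes by both cutoffs), with Adipoq at 0.77 and Nrg4 at 1.24. The set as a term gave 5 calls, among them Nampt at -0.14 and Nrg4 at 0.82, and the 18-library fit gave Nrg4 at 0.71 and 1355 genes by both cutoffs. A minimum of 10 counts left 574 genes by both cutoffs. Rbp4 was 0.39 with no filter and not called (adjusted p = 0.0532). The length offset turned Nampt to 0.021 and Irf3 to 0.71. Without single libraries the calls ranged from 2 to 5, Adipoq from 0.33 to 0.55, Rbp4 from 0.32 to 0.47, Nrg4 from 0.57 to 0.90 and Apln from 0.30 to 0.74. The cause of these changes was not tested.

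Same-numbered libraries did not deviate together (r from -0.29 to 0.10 in TRAP and -0.046 to 0.015 in culture, with the own number best for 1 of 9), so the replicate block was no pairing, and it changed no other call among the 7. Depth limits Apln in TRAP, with 15 to 59 reads, and Lep and Nrg4 in culture.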

Other observations

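Of 20 transcription factors of adipocyte genes, 5 were called higher and 8 lower in FI3OE cells, where 37% of all genes were called, with the stress factor Atf3 (log2 fold change 0.77, adjusted p = 5.97e-05 by edgeR) and Klf4 (0.51, adjusted p = 2.99e-06) higher and Klf15 (-0.54, adjusted p = 3.07e-05) and Ebf2 (-0.47, adjusted p = 2.16e-05) lower. In FI3KO TRAP 3 of 19 were called higher and 5 lower, near the 37.4% of all genes called. Ebf2 (0.73, adjusted p = 0.000848) was higher and Klf4 (-1.27, adjusted p = 0.00461), Zfp423 (-1.01, adjusted p = 0.000131) and Hif1a (-0.67, adjusted p = 0.000856) lower. In replicates 1 and 2, 1 of 19 was called higher and 1 lower (3.56% of all genes called). In replicates 3 to 6 there were 4 higher and 6 lower (50.6% of all genes called).

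Of the paralogs of adiponectin in the C1q and TNF related family, 3 of 7 were called higher and 1 lower in FI3OE (20.2% and 16.8% of all genes), namely C1qtnf1 (0.79, adjusted p = 2e-06), C1qtnf3 (0.56, adjusted p = 0.00996), C1qtnf12 (0.26, adjusted p = 0.00304) and C1qtnf6 (-0.23, adjusted p = 0.0104). In FI3KO TRAP C1qtnf6 (-3.29, adjusted p = 0.000168) and C1qtnf5 (-1.11, adjusted p = 0.00367) were lower and C1qtnf12 (0.31, adjusted p = 0.0139) higher, of 6 tested (19.1% of all genes higher and 18.3% lower). In replicates 1 and 2, 1 of 6 was called lower (3.56% of all genes called), and in replicates 3 to 6 there were 1 higher and 3 lower (50.6% of all genes called). Of the 3 paralogs of resistin, 0 were tested in culture and 1 in TRAP, which was not called. Mesothelial markers summed to 23.3 to 57.4 CPM in WT and 13.7 to 34.9 CPM in FI3KO TRAP, with 1 of 8 called lower (18.3% of all genes). Epididymal markers summed to 1.70 and 1.58 CPM in FI3KO replicates 1 and 2 and to 0.0640 to 0.706 CPM in the other TRAP libraries. The 1 marker tested in replicates 1 and 2, Crisp1, had 0 reads in all WT TRAP libraries and at most 32 in FI3KO. It passed the filter on low counts only through FI3KO, so its call there is not read as a result.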
